A study of Mus musculus with 6 samples.

Results

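Semaphorins are a family of secreted and membrane-bound guidance proteins, and plexins are their main receptors. Their transcripts were followed in sorted mouse embryo cells with and without stabilised β-catenin. The members were all genes whose symbol has the form Sema3 to Sema7 plus a letter, or Plxna, Plxnb, Plxnc or Plxnd plus a number, measured by a probe set (the group of short probes that reads 1 transcript) annotated to that gene alone. This gave 29 genes, 20 semaphorins and 9 plexins, read by 70 probe sets, out of 18193 genes measured. Where a gene had several probe sets, the one with the highest mean over the 6 arrays stood for it. Both groups were cardiac progenitors of embryonic day 9.0, isolated by flow sorting as cells positive for a yellow fluorescent protein that marks the domain of Isl1-cre. The 3 mutant samples came from embryos carrying Isl1-cre, Rosa-YFP and Beta-catenin (loxP ex3), an allele from which Cre yields a stable β-catenin. The 3 control samples are labelled wild type, and their alleles are not listed beyond that. Cre and reporter act in every cell with a history of Isl1 expression, which as background also takes in pharyngeal endoderm and some neurons. The number of embryos behind each sample is not given in the sources used here, and the p-values below speak only of the spread among the 6 samples, which may be technical.

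Class 3 semaphorins are secreted and mostly signal through a plexin A held in a complex with a neuropilin, while Sema3e binds plexin D1 directly. Classes 4, 5 and 6 are transmembrane proteins that bind plexins B or A, and Sema7a is tethered to the membrane by a lipid anchor and binds plexin C1 and β1 integrin. An activated plexin changes the state of small GTPases of the R-Ras and Rap families in its cell, and so acts on adhesion and the cytoskeleton. In the embryo these pairs guide axons, neural crest cells and growing vessels, and Sema3c, Plxna2 and Plxnd1 are known for their part in forming the outflow tract of the heart.

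All values are log2 expression. A rough background of 4.85 was set at the 95th percentile of the probe sets for bacterial controls. Of 12 marker genes of second heart field progenitors, 11 had a mean above it. Isl1, whose locus drives the Cre, read 9.24, 9.36 and 9.77 in wild type and 8.72, 8.61 and 7.49 in mutant cells, and Nkx2-5, a cardiac transcription factor, lay at or below background by its mean. Mutant replicate 1 stood apart from the other mutant arrays. It lay at 1.21 on the first principal component over all genes, against 33.0 and 29.4 for mutant replicates 2 and 3 and −21.6 to −20.5 for wild type. The 3 Y-linked genes measured were high on wild-type replicate 1 and on all 3 mutant arrays, and low on wild-type replicates 2 and 3. Xist was high on wild-type replicates 2 and 3 (12.63 and 12.79) and also on mutant replicates 1 and 3 (12.13 and 12.44). An alternative fit took the level of the Y-linked genes as a covariate, and Sema4g shifted most under it among the members. Only 1 wild-type array, replicate 1, shares the high level of the mutant arrays. Differences from that fit therefore lean mostly on this array. Levels of different genes are not compared, since each probe set has its own response.

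No semaphorin or plexin passed the threshold (limma, adjusted p under 0.05) in either direction. Of all 18193 genes, 0.066% were called higher and 0% lower. Before adjustment, 4 members stood higher in mutant cells (Sema3g, Sema6d, Sema4d and Plxnd1), Plxna2 stood lower (unadjusted p under 0.05). These 5 make 17.2% of the members, beside 11.6% of all genes (6.76% higher and 4.84% lower). The count was 7 without mutant replicate 1, where 14.7% of all genes had such a p. It was 3 (Sema3g, Sema6d and Plxna2) without mutant replicate 3, where 8.28% of all genes did. The groups did not overlap for 8 members, 6 of them higher and 2 lower in the mutant. That is 27.6% of the members, beside 17.8% of all genes (8.64% higher and 9.18% lower). The median difference was 0.0275 over the members and −0.0302 over all genes. The balance was not the same by eye in ligands and receptors, a contrast that was not tested: 15 of 20 semaphorins had a higher mutant mean (median 0.18), and 7 of 9 plexins a lower one (median −0.0680). Of all genes 44.7% had a higher mutant mean. These counts rest on the brightest probe set of each gene, and over all 70 probe sets of members 36 were higher and 34 lower. Relative to the wild-type mean, the semaphorin median was 0.0888, 0.21 and 0.30 on mutant arrays 1, 2 and 3, and from −0.0660 to 0.0613 on wild-type arrays. The plexin median was 0.127, −0.17 and −0.13 on the mutant arrays, and from 0.0237 to 0.134 on wild-type arrays. For plexins mutant array 1 thus lay within the wild-type range, and for semaphorins it lay above it.

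**Figure D1:**
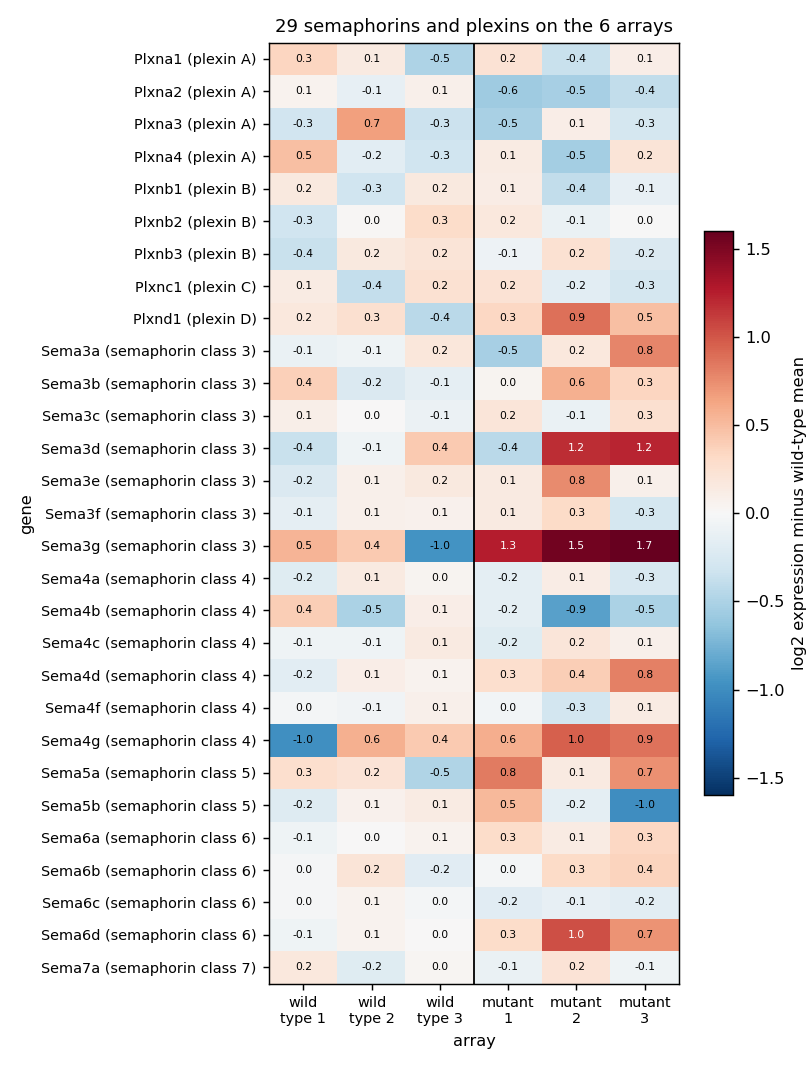
Each row is a semaphorin or plexin and each column an array; colour and number give log2 expression minus the gene's wild-type mean. Sema3g and Sema3d hold the strongest colours on mutant arrays 2 and 3, while most plexin rows stay pale.

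Among the 7 secreted class 3 semaphorins, Sema3g, which is known to be made by endothelium and to bind neuropilin-2, stood furthest from wild type. Sema3g read 6.57, 6.44 and 5.07 in wild type and 7.28, 7.57 and 7.71 in mutant cells. All mutant arrays lay above all wild-type arrays, and wild-type replicate 3 was the lowest by a wide gap. The difference was 1.50 (SE 0.38), or 2.83-fold, and did not pass (adjusted p = 0.239). Without wild-type replicate 3 it was 1.02, and with a Y-linked covariate 1.04 (adjusted p = 0.571). Only 1 probe set reads Sema3g, so no second probe set was there to compare.

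Sema3d, which guides endothelial and neural crest cells, read 4.99, 5.27 and 5.76 in wild type and 4.91, 6.51 and 6.55 in mutant cells. Mutant replicates 2 and 3 lay above every wild-type array, and mutant replicate 1 lay below them. The difference of 0.65 (SE 0.44) did not pass, and it was 1.20 without mutant replicate 1 (adjusted p = 0.117). A further Sema3d probe set gave 1.001. Sema3e, the ligand of plexin D1, had a difference of 0.33 (SE 0.21) under the probe set that stood for it, with groups that overlapped. Its 4 probe sets ran from −0.35 to 1.41, and the lowest was above background on 0 arrays and the highest on 3. The one at 1.41 read 4.87, 4.60 and 3.66 in wild type and 4.70, 6.19 and 6.46 in mutant cells. Mutant replicates 2 and 3 were high there, and mutant replicate 1 was within the wild-type range.

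The other members of class 3 had groups that overlapped. Sema3b stood at 0.32, Sema3a, a repellent of axons, at 0.14, Sema3c, an attractant of cardiac neural crest, at 0.12, and Sema3f at 0.0551. Mutant arrays of Sema3a disagreed, at 8.84, 9.54 and 10.16 for replicates 1, 2 and 3. All 7 class 3 genes thus had a higher mutant mean under the brightest probe set. This does not hold for every probe set: a further Sema3c probe set gave −0.41, and the other Sema3f probe sets gave −0.28 and −0.27. In the RefSeq gene order of GRCm38.p6, Sema3d and Sema3a are direct neighbours, with 3 protein-coding genes between Sema3a and Sema3e and 3 between Sema3b and Sema3f.

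Class 4 was mixed, with 3 of 6 members higher and 3 lower by their means. Sema4d, the ligand of plexin B1, read 6.63, 6.92 and 6.87 in wild type and 7.07, 7.20 and 7.61 in mutant cells. The mutant arrays were all higher, by a small margin at mutant replicate 1. Its difference of 0.49 (SE 0.17), or 1.40-fold, did not pass (adjusted p = 0.363). Another Sema4d probe set gave 0.27, and the remaining one, below background on every array, −0.21. The mean over the 3 probe sets gave 0.18.

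Sema4g read 6.13, 7.68 and 7.54 in wild type and 7.69, 8.07 and 7.99 in mutant cells. Wild-type replicate 1 alone was low, and the lowest mutant array barely exceeded the highest wild-type array. The difference was 0.80 (SE 0.39, adjusted p = 0.476), 0.31 without wild-type replicate 1, and 1.59 with the Y-linked covariate (adjusted p = 0.247). Sema4b went the other way at −0.51 (SE 0.27), with groups that overlapped and a further probe set at −0.00374. Sema4c, a ligand of plexin B2, stood at 0.0275, and Sema4f at −0.0702. Sema4a was above background on 0 of 6 arrays, so its difference of −0.0963 is not a measured one.

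Of the 4 class 6 semaphorins, 3 had groups that did not overlap, 2 higher and 1 lower, where 17.8% of all genes had such groups (8.64% higher and 9.18% lower). Sema6d, which binds plexin A1 and is known for its action on the growth and looping of the heart tube, read 7.50, 7.62 and 7.58 in wild type and 7.86, 8.60 and 8.29 in mutant cells. Wild-type arrays were close together, and mutant replicate 1 lay nearest to them. The difference was 0.69 (SE 0.19), or 1.61-fold (adjusted p = 0.275). All 4 Sema6d probe sets were higher in mutant cells, from 0.31 to 1.10. In the 15 alternatives that give Sema6d a value of its own, the difference lay between 0.51 and 1.10, and the smallest adjusted p was 0.0891.

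Sema6a, a ligand of plexins A2 and A4, read 7.67, 7.74 and 7.80 in wild type and 8.04, 7.87 and 8.07 in mutant cells. The groups lay close but apart, with a difference of 0.25 (SE 0.12, adjusted p = 0.469). Its 3 probe sets were all higher, from 0.17 to 0.67. Sema6c read 6.38, 6.46 and 6.36 in wild type and 6.22, 6.27 and 6.23 in mutant cells, a tight separation of only −0.16 (SE 0.11). Other Sema6c probe sets gave −0.0143 and 0.0411. Sema6b stood at 0.21 (SE 0.16) with overlap. In class 5, whose members carry thrombospondin repeats outside the cell, Sema5a stood at 0.57 (SE 0.26, adjusted p = 0.461) and Sema5b at −0.21. Sema5a overlapped because mutant replicate 2 read 7.23, below wild-type replicates 1 and 2 at 7.36 and 7.31. Its 4 probe sets ran from −0.35 to 0.57. Sema5b ranged within the mutant group from 9.22 to 10.73. Sema7a stood at 0.0136, and its other probe set at −0.35.

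**Figure D2:**
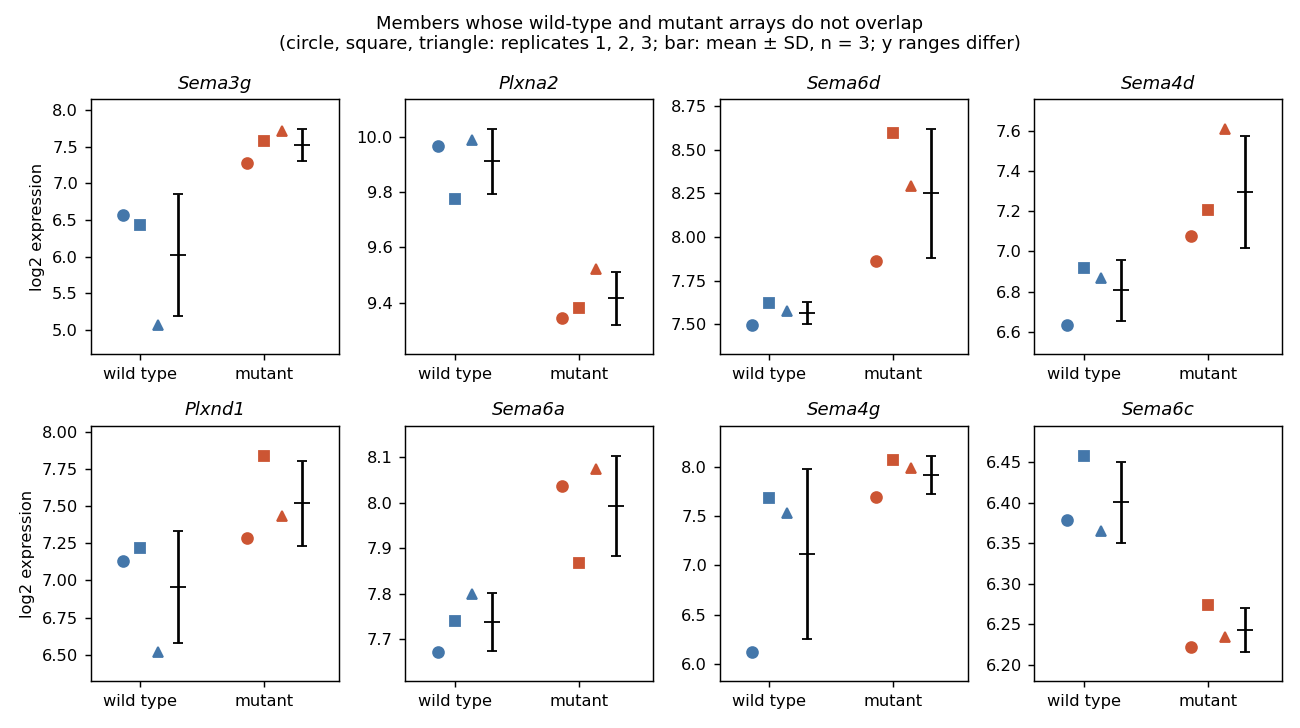
The 8 semaphorins and plexins whose groups do not overlap, with log2 expression on the y axis (ranges differ between panels), a symbol for each replicate and a bar for mean ± SD (n = 3). Sema3g, Plxnd1 and Sema4g each have a single low wild-type array, whereas the wild-type arrays of Sema6d, Sema6a and Sema6c are close together.

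Of the 9 plexins, Plxna2 and Plxnd1 had groups that did not overlap, and neither passed. Plxna2, a receptor of class 3 and class 6 semaphorins that cardiac neural crest expresses, read 9.97, 9.78 and 9.99 in wild type and 9.34, 9.38 and 9.52 in mutant cells. Every mutant array lay below every wild-type array. The difference of −0.50 (SE 0.13), which leaves wild type 1.41-fold above mutant, did not pass (adjusted p = 0.241). The 4 Plxna2 probe sets were all lower in mutant cells, from −0.50 to −0.16. The difference kept its sign in all 15 alternatives, from −0.56 to −0.27. Plxna1, the main receptor of Sema6d, stood at −0.00864, Plxna3 at −0.23 and Plxna4 at −0.0680. All 4 plexin A genes had a lower mutant mean, but further probe sets of Plxna3 and Plxna4 gave 0.31 and 0.35.

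Plxnd1, the receptor of Sema3e on endothelium, read 7.13, 7.22 and 6.52 in wild type and 7.29, 7.84 and 7.43 in mutant cells. Wild-type replicate 3 was again the lowest, and mutant replicate 1 barely exceeded wild-type replicate 2. The difference was 0.57 (SE 0.23), or 1.48-fold (adjusted p = 0.408). Leaving out wild-type replicate 3 gave 0.35. The B plexins, receptors of class 4, stood at −0.13 for Plxnb1, 0.0197 for Plxnb2 and −0.0238 for Plxnb3. Plxnb3 exceeded background on 3 of 6 arrays. Plxnc1, the receptor of Sema7a, stood at −0.0727, and 5 of its 6 probe sets were lower in mutant cells, down to −0.58.

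Ligands and receptors that are known to pair can be set side by side. Sema3e and Plxnd1 stood at 0.33 and 0.57. Sema4d was at 0.49 while its receptor Plxnb1 was at −0.13. Sema6d was at 0.69 beside Plxna1 at −0.00864, and Sema6a at 0.25 beside Plxna2 at −0.50. Sema7a and Plxnc1 were both near 0 under the probe sets that stood for them. The other Sema7a probe set gave −0.35, and the 6 Plxnc1 probe sets ran from −0.58 to 0.21. Under the probe sets that stood for the genes none of these differences passed. Differences between the partners of a pair were not tested.

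**Figure D3:**
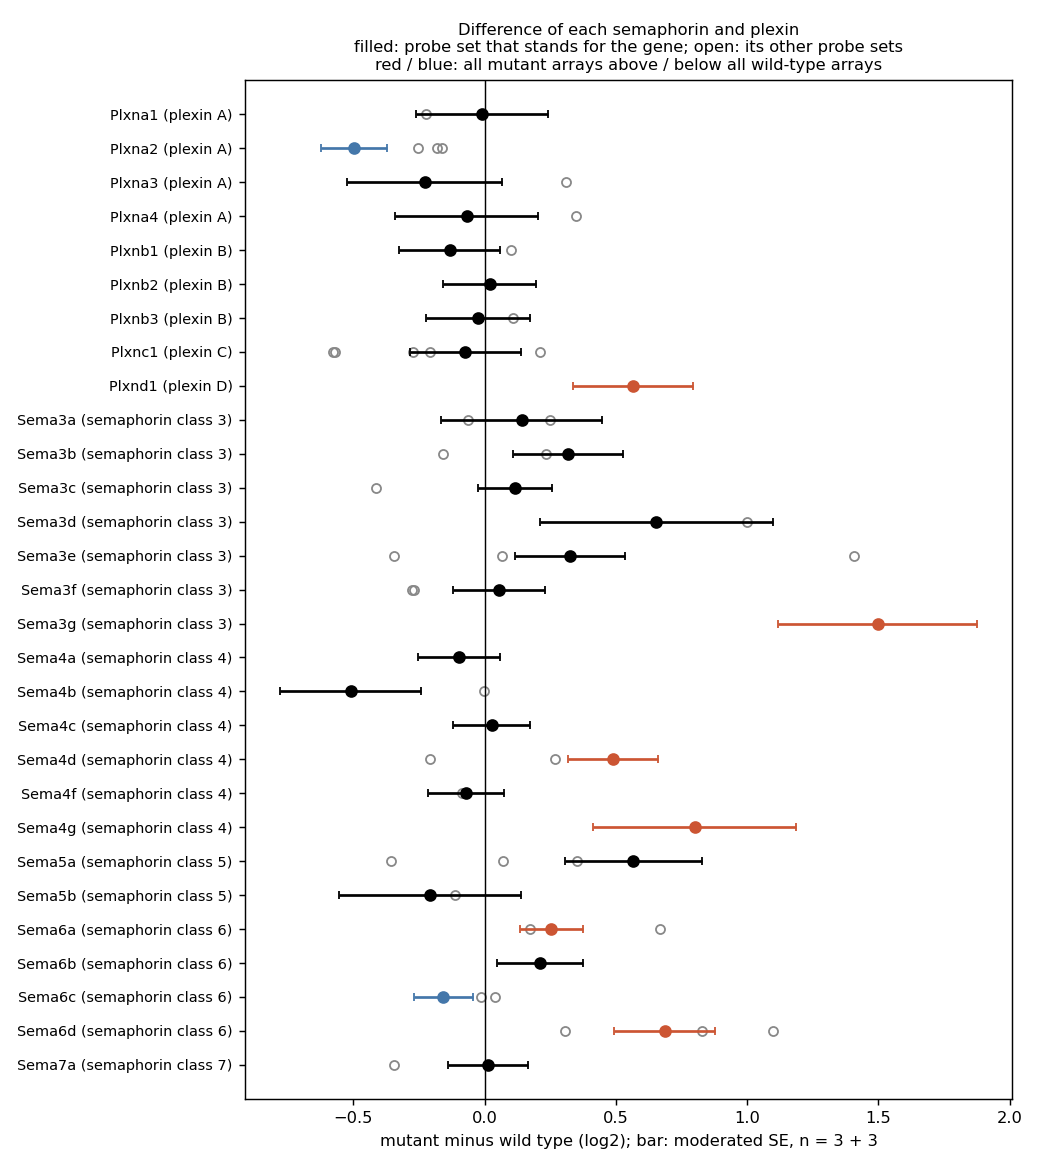
Mutant minus wild-type difference (log2) of each semaphorin and plexin, with the moderated SE; filled points are the probe sets that stand for the genes and open points their other probe sets. All probe sets of Sema6d, Sema6a and Sema3d lie right of 0 and all of Plxna2 left of it, while those of Sema3e spread from −0.35 to 1.41.

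Probe sets of a gene often disagreed. Of 23 members with several probe sets, 9 had all of them on the same side of 0. Sema3d, Sema6a and Sema6d were higher throughout, and Plxna1, Plxna2, Sema4a, Sema4b, Sema4f and Sema5b lower throughout. Over all 70 probe sets, 36 were higher and 34 lower in mutant cells. Of the 29 members, 27 exceeded background on all 6 arrays.

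Promoter windows are shown for the 5 members with the smallest p, Sema3g, Plxna2, Sema6d, Sema4d and Plxnd1, none of which passed. Each is the 250 bases before a RefSeq transcript start of GRCm38.p6, written 5′ to 3′ on the gene's strand. Capitals mark matches on either strand to short cores. For TCF/LEF factors, through which β-catenin acts, the core was CTTTGA, which is only a single form of their site. For hypoxia-inducible factors it was ACGTG or GCGTG, and for ETS factors CCGGAA. The Sema3g window is chr14:31217623-31217872, plus strand. That of Plxna2 is chr1:194619579-194619828, plus strand, that of Plxnd1 chr6:115995006-115995255, minus strand, and those of the 2 Sema6d starts chr2:124089719-124089968, plus strand, and chr2:124653331-124653580, plus strand. Sema4d has 3 starts, with windows at chr13:51739447-51739696, minus strand, chr13:51748811-51749060, minus strand, and chr13:51756684-51756933, minus strand.
Sema3g: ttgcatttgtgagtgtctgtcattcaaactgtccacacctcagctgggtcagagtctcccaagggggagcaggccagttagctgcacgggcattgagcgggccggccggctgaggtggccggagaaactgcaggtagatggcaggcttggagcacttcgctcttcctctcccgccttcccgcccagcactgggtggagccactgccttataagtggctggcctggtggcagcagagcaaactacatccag
Plxna2: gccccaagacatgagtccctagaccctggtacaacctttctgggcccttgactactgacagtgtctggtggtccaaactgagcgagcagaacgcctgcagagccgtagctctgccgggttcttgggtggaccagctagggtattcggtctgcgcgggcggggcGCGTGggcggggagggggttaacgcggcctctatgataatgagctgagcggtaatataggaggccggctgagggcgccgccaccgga
Plxnd1: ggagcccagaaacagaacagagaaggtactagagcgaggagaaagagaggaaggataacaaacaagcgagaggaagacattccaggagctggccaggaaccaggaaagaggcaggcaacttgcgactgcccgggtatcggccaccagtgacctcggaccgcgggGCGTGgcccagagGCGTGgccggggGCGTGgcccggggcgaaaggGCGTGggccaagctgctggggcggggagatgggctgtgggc
Sema6d first start: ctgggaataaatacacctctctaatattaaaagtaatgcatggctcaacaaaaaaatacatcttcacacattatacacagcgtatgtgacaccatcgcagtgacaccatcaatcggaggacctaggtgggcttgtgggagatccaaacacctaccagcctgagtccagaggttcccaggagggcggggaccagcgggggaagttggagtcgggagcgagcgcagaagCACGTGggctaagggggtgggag
Sema6d second start: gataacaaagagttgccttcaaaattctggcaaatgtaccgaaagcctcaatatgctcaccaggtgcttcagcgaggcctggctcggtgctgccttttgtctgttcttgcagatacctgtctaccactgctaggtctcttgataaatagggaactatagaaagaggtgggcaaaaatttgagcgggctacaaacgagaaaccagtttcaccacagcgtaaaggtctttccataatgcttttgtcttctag
Sema4d window 1: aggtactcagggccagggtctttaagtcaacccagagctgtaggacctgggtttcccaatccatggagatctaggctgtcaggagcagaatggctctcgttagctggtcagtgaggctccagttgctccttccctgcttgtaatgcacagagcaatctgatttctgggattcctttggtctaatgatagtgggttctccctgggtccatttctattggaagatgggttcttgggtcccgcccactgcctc
Sema4d window 2: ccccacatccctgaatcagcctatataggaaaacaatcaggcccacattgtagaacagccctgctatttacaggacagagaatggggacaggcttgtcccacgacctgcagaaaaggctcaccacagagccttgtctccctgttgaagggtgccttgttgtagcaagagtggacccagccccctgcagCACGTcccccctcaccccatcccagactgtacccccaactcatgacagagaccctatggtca
Sema4d window 3: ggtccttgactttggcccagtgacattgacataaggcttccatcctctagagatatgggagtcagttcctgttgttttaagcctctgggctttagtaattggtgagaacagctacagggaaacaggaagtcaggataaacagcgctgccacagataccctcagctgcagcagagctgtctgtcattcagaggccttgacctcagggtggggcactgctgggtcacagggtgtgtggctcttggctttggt
The Plxnd1 window held 4 matches to GCGTG, which begin 86, 73, 61 and 41 bases before the start, and the Plxna2 window 1, at 87 bases. In the first Sema6d window the capitals are CACGTG, where ACGTG matches on both strands with overlap, and the Sema3g window held no match. The second Sema4d window held 1 match to the hypoxia core, 62 bases before its start, and the other Sema6d and Sema4d windows held none. Of 24 members with a window in the table (35 windows), 1, Sema3e, held CTTTGA, 118 bases before its start. Among all 32851 windows of this length 13.8% held CTTTGA, 38.6% ACGTG or GCGTG, and 12.0% CCGGAA. In the members' windows the shares were 2.86%, 42.9% and 11.4%. A match describes letters in a window and says nothing about binding. Other forms of these cores, such as CTTTGT for TCF/LEF factors, and other motifs were not searched. A window without a match can therefore still hold such a form.

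Partner genes of the pathway were taken from a list of 46 genes, of which 44 were measured. None passed over all genes (limma, adjusted p under 0.05). Before adjustment 10 of them (22.7%) had a p under 0.05, 9 with a higher and 1 with a lower mutant mean, beside 11.6% of all genes. The groups did not overlap for 12 partners (9 higher, 3 lower), or 27.3%, beside 17.8% of all genes. Without mutant replicate 1, 1 partner passed, the small GTPase gene Rras. In that fit 0.506% of all genes were called, against 0.066% with all arrays.

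Of 13 coreceptors and alternative receptors, 11 had a higher mutant mean (median 0.45), as did 44.7% of all genes (median −0.0302). The 11 include Cd72, at 0.00973 and above background on 0 arrays. The 3 with the smallest p were Erbb2, a receptor tyrosine kinase that associates with plexin B1, Nrcam, an adhesion molecule that associates with neuropilin-2, and Ptk7, a receptor that pairs with plexin A1 in response to Sema6d. Erbb2 read 8.02, 7.94 and 8.004 in wild type and 8.38, 8.47 and 8.74 in mutant cells, a difference of 0.54 (SE 0.14, adjusted p = 0.238). Nrcam read 8.74, 8.40 and 8.72 against 9.09, 9.13 and 9.33, a difference of 0.56 (SE 0.15). Ptk7 read 7.47, 7.67 and 7.91 against 8.04, 8.44 and 8.24, also 0.56 (SE 0.17). Groups were apart for all 3, and the 4 Nrcam probe sets ran from 0.20 to 0.70. The neuropilins, coreceptors of class 3 semaphorins, stood at 0.45 for Nrp1 (SE 0.18, adjusted p = 0.405) and 0.29 for Nrp2, both with groups that overlapped.

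Among 16 genes for GTPases and other proteins that act on plexins, 8 were higher and 8 lower, with a median of −0.0134. Rras, whose product R-Ras is inactivated by plexins, read 7.35, 7.47 and 7.19 in wild type and 8.18, 8.53 and 8.78 in mutant cells. The gap between the groups was wider than the range within either. The difference was 1.16 (SE 0.18), or 2.23-fold (adjusted p = 0.120), and 1.32 without mutant replicate 1 (adjusted p = 0.0386). Over its 15 alternatives the adjusted p ran from 0.0386 to 0.389. Farp1, an exchange factor tied to plexin A, read 9.62, 9.39 and 9.19 in wild type and 9.72, 9.90 and 9.81 in mutant cells, a difference of 0.41 (SE 0.15). A further Farp1 probe set gave 0.16. Rnd1, a GTPase that binds plexins, read 4.38, 4.44 and 4.57 against 5.76, 5.09 and 4.64, a difference of 0.70 (SE 0.27). Rnd1 exceeded background on mutant replicates 1 and 2 alone. Rac1 and Rhoa stood at −0.19 and −0.0466, and the 3 Rhoa probe sets ran from −0.10 to 0.25.

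Of 15 downstream genes, 10 had a lower mutant mean (median −0.12), and of all 18193 genes 10057 had one. Mical1, an oxidoreductase that takes actin filaments apart, read 9.48, 9.13 and 9.20 in wild type and 10.17, 9.998 and 9.84 in mutant cells, apart by 0.74 (SE 0.15, adjusted p = 0.187). A further Mical1 probe set gave 0.50. Limk1, a kinase that inactivates the actin-severing protein cofilin, read 9.13, 9.33 and 9.81 against 9.004, 8.93 and 8.17, a difference of −0.72 (SE 0.27, adjusted p = 0.382). Mutant replicate 3 was the lowest, and the 3 Limk1 probe sets ran from −0.72 to −0.0893. Fes, a tyrosine kinase downstream of plexin A1, read 5.91, 5.998 and 5.95 in wild type and 6.11, 6.28 and 6.24 in mutant cells, a difference of 0.25 (SE 0.12). A further Fes probe set gave 0.0552. The collapsin response mediators, which are abundant in neurons, had lower mutant means in all 5 cases, from −0.71 for Dpysl4 to −0.0783 for Dpysl5. A further Dpysl5 probe set gave −0.53.

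**Figure D4:**
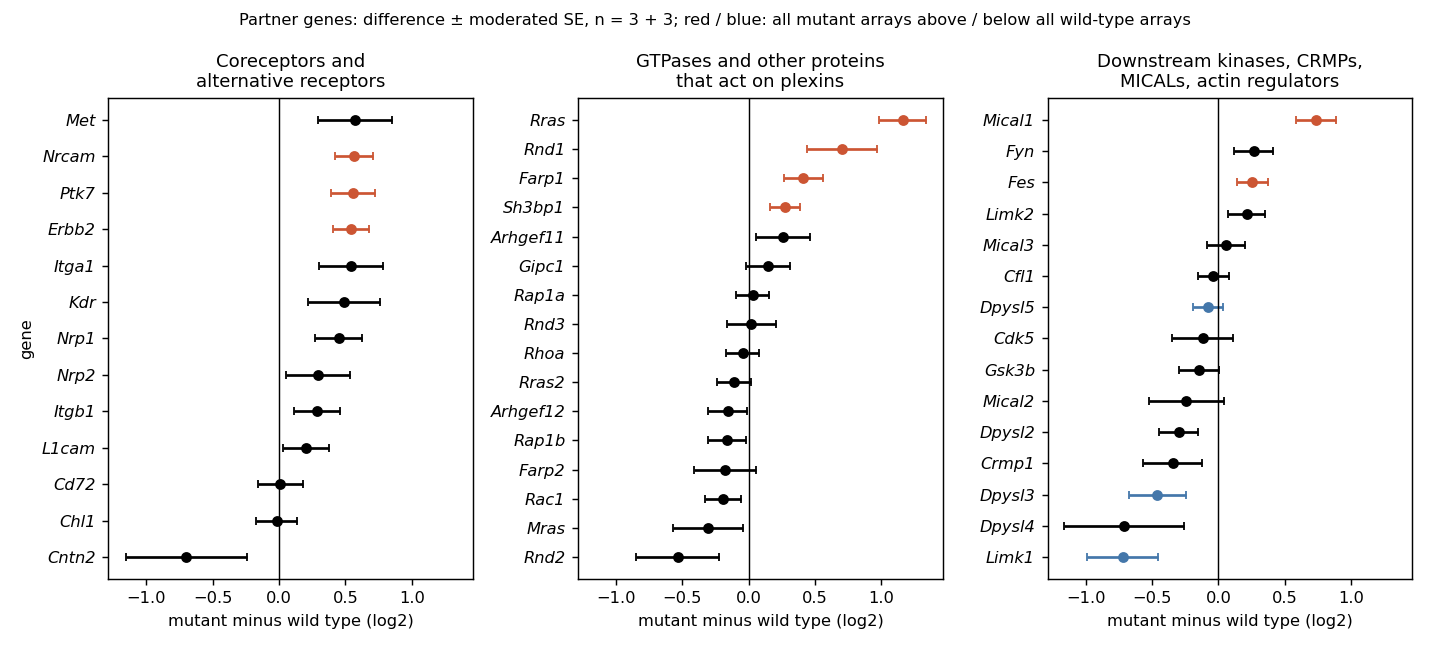
Mutant minus wild-type difference (log2, ± moderated SE) of 44 partner genes in 3 groups; colour marks groups of arrays that do not overlap. Rras at 1.16 and Mical1 at 0.74 head their panels, and Limk1 at −0.72 closes the downstream panel.

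Markers of other cell types also differed between the arrays. Of 14 endothelial markers all had higher mutant means, from 0.0455 for Eng to 1.80 for Sox17. The groups were apart for 9 of them, where 8.64% of all genes were apart and higher, and none passed. The mean of the endothelial markers relative to wild type was 0.56 to 0.91 on mutant arrays. On wild-type arrays it was −0.39 to 0.30, lowest on wild-type replicate 3. Sema3g, Plxnd1 and Sema5a were lowest on that array too, and so were Plxna1 and Sema6b. Sema3d and Sema3e instead had their highest wild-type value there (5.76 and 6.17). Neural crest markers, 8 of 10 higher, were at 0.27 to 0.66 against −0.0811 to 0.15, and surface ectoderm markers, 9 of 10 higher, at 0.36 to 1.16 against −0.15 to 0.24. The neural crest and surface ectoderm means were also lowest on wild-type replicate 3. The pattern over the arrays thus does not single out the endothelial markers. None of these markers had a mean at or below background. Genes of the response to low oxygen and glycolysis, 16 of 16 higher, were at 0.89 to 1.47 against −0.12 to 0.0696. Canonical Wnt targets, 12 of 12 higher and apart, were at 0.76 to 1.12 against −0.0647 to 0.0876, with Wif1 at or below background. Second heart field markers, 7 of 12 lower, were at −0.53 to −0.16 against −0.18 to 0.12. Cardiomyocyte markers, 10 of 12 lower, were at −0.40 to −0.15 against −0.35 to 0.34. Macrophage markers, 7 of 8 lower, were at −0.67 to −0.0794 against −0.22 to 0.14, with the defining Ptprc and Aif1 at or below background. Primitive erythroid markers, 7 of 7 lower by their means, were at −0.90 to 0.35 against −0.35 to 0.19. Pharyngeal endoderm markers, 4 of 8 higher, were at −0.14 to 0.11 against −0.17 to 0.16. That mean joins opposite differences: Shh (−1.26) and Foxa1 (−1.07) were lower without overlap, and Sox17 (1.80) was higher without overlap. Sox17 is also in the endothelial list, and Epcam in the surface ectoderm list. Neuronal markers, 9 of 11 lower, were at 0.15, −1.17 and −0.75 on mutant arrays 1, 2 and 3, and highest on wild-type replicate 3 at 0.52. That array was also the highest for Dpysl2, Dpysl3, Dpysl4 and Crmp1, but Dpysl5 had its lowest wild-type value there (8.70). The part of these markers in the semaphorin and plexin values was not tested. In sorted but unseparated cells, a change in the share of a cell type and a change in RNA per cell cannot be told apart.

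**Figure D5:**
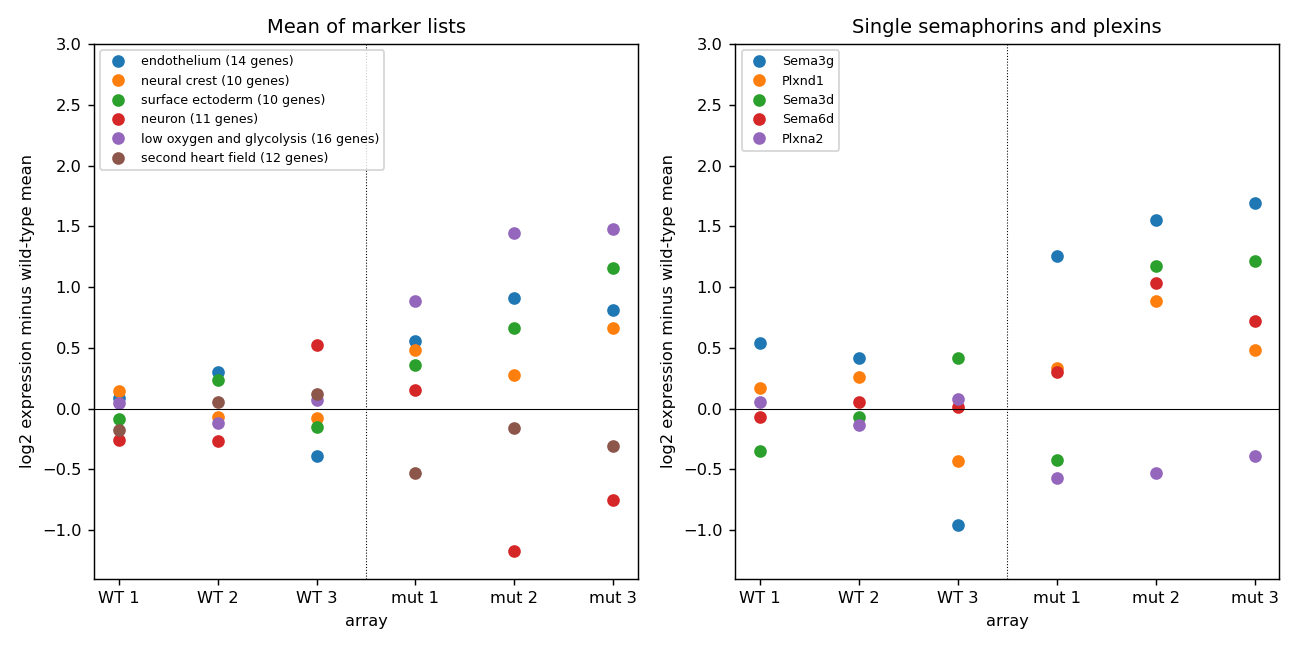
Left, the mean of each marker list, and right, 5 semaphorins and plexins, both as log2 expression minus the wild-type mean on each array. Sema3g and the endothelial, neural crest and surface ectoderm means are all lowest on wild-type array 3 and above all wild-type arrays on each mutant array. Plxna2 lies from −0.57 to −0.39 on the mutant arrays.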

How the data were processed

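RNA of 6 samples was extracted with Trizol, amplified with the WT-Ovation Pico system, labelled with biotin and hybridised to Affymetrix arrays, per the labels' protocols. The authors deposited 1 value per probe set and array, which the values show to be log2 (1.89 to 15.07 over 45101 probe sets). How they were normalized is not given in the sources used here. Sorted values were nearly the same on all arrays (largest SD at a rank 0.0693), so a shift of most genes would have been lost. No value was rescaled and no gene filtered.

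Gene names come from GEO's annotation of the platform, and symbols were updated by gene identifier from RefSeq. Of 34945 single-gene probe sets 34741 matched, while 932 that name several genes, 9160 unnamed ones and 64 controls were left out. All 18193 genes went into 1 linear model by group with limma 3.58.1 (R 4.3.3; lmFit, then eBayes; two-sided; Benjamini-Hochberg over all genes; threshold 0.05), after a test on simulated data. The smallest p of an exact permutation test is 0.1 with 3 arrays a group. Members, lists and alternatives were chosen with earlier results of these data known. Per-array values are given for members at an unadjusted p under 0.05 or with groups that do not overlap, and for the 3 partners per list with the smallest p. Sema3a, Sema3d, a Sema3e probe set, single arrays of Sema5a and Sema5b, Nrp1, Nrp2, Rac1, Rhoa and the collapsin response mediators were added after their values were seen. Promoter windows come from RefSeq. The number of arrays limits the precision.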

Additional observations from a re-analysis of the deposited data

How the results depend on the processing

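No semaphorin or plexin was called in any of the 16 alternatives, which include an adjusted p under 0.01. Few genes of any kind were called in these fits. The number over all genes was 0 with a replicate block and 1 with the Y-linked covariate. It was at most 92 (0.506%), without mutant replicate 1. With so few calls anywhere, the lack of calls among 29 members says little about them. The count at an unadjusted p under 0.05 (5, beside 11.6% of all genes) was 8 with the most variable probe set, beside 11.4% of all genes. It was 3 to 7 when an array was left out, beside 8.28% to 14.7% of all genes. Same-numbered samples showed no clear shared deviation (correlations 0.108, −0.0751 and −0.0161). With 3 arrays a group this cannot show whether they were handled in pairs. With a replicate block the count was 8, beside 10.7% of all genes. The members' median (0.0275) was −0.0131 with arrays centred on their median, 0.0697 with the Y-linked covariate and 0.0533 to 0.111 without single arrays. Partners called were 0 to 1 without single arrays.

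The genes whose sign changed passed in no fit. With the mean over probe sets these were Plxna3 (0.0411), Plxna4 (0.141), Plxnb3 (0.0429), Sema3c (−0.148), Sema3f (−0.162) and Sema7a (−0.166). With the most variable probe set they were Plxnb1 (0.101), Sema3c (−0.413), Sema3f (−0.275) and Sema7a (−0.346). Array weights turned Plxna1 (0.0437), Plxna4 (0.0231), Plxnb2 (−0.0258) and Sema3f (−0.0147). Centring turned Plxnb2 (−0.0208), Sema4c (−0.0131) and Sema7a (−0.0269), and quantile normalization Plxnb2 (−0.0198) and Plxnb3 (0.0145). The Y-linked covariate turned Plxnb3 (0.234), Sema3b (−0.0373), Sema4a (0.0388) and Sema7a (−0.151). Without single arrays, ranges that crossed 0 were −0.254 to 0.167 for Plxna1, −0.403 to 0.0984 for Plxna3, −0.225 to 0.174 for Plxna4, −0.139 to 0.166 for Plxnb2, −0.199 to 0.0821 for Plxnb3, −0.263 to 0.0509 for Plxnc1, −0.179 to 0.480 for Sema3a, −0.0701 to 0.222 for Sema3f, −0.0567 to 0.138 for Sema4c, −0.169 to 0.0441 for Sema4f, −0.572 to 0.181 for Sema5b and −0.0880 to 0.0956 for Sema7a. The cause was not tested.

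Without the dimmest 40% of genes, 23 of the 29 members were tested.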
